A study of Homo sapiens with 6 samples.

Results

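Integrins, laminins and collagens, the receptors and building blocks of cell-matrix adhesion, were followed in RBE cells, an established cholangiocarcinoma line of human origin, in 3 libraries labelled sgKCNQ3 and 3 labelled NC. The genes were taken by symbol: the ITGA, ITGB, LAMA, LAMB and LAMC genes of the deposited table, the genes named COL with a number and A, and FN1, TNC and SPARC. This gave 85 of the 16200 genes in the table, namely 25 integrin subunits, 12 laminin chains, 10 collagens of the basement membrane zone, 31 other collagens, 3 matrix glycoproteins and 4 genes that share the spelling but encode no subunit (ITGB1BP1, ITGB1BP2, ITGB3BP and ITGBL1). By its spelling, sgKCNQ3 names a guide against KCNQ3, the gene of a voltage-gated potassium channel subunit, and the study text speaks of KCNQ3 knockdown; NC is the control. The labels tell neither the effector used with the guide, nor what NC cells received, nor whether cells were a pool or a clone. The sequencing was meant to find pathways downstream of KCNQ3 in a study that also assayed migration and invasion.

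Integrins are cell surface receptors made of an alpha and a beta subunit, and the pairing sets which matrix protein is bound. Laminins are trimers of an alpha, a beta and a gamma chain that, with type IV collagen, form the basement membrane on which bile duct epithelium sits. Fibrillar collagens, fibronectin and tenascin-C belong to the interstitial matrix, which in cholangiocarcinoma is mostly laid down by fibroblasts, although carcinoma cells also secrete some of it.

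Total estimated counts ranged from 15685137 to 15722455 in sgKCNQ3 and from 15601283 to 16089500 in NC. KCNQ3 itself held 222, 206 and 191 counts in sgKCNQ3, against 256, 257 and 252 counts in NC (log2 fold change -0.33, SE 0.0841, edgeR quasi-likelihood adjusted p 0.00446), a modest difference with groups that did not overlap, which was not called on log2(TPM + 1) (limma adjusted p 0.151). Of 11 bile duct epithelial markers 10 were tested, of which 6 (60.0%) were higher in sgKCNQ3 and 0 lower, against 14.0% higher and 15.1% lower of all tested genes, and the list summed to 4137 to 4334 CPM (counts scaled to library size) in sgKCNQ3 and 3725 to 3840 CPM in NC. Of markers of other cell types, 0 of 8 endothelial markers in the table passed the filter on low counts, and the pan-leukocyte gene PTPRC had at most 2 counts in any library. Of 7 leukocyte markers 2 were tested, and both were called lower (given below). Of 8 hepatocyte markers 3 were tested and 0 called. They summed to 111.3 to 120.6 CPM in sgKCNQ3 and 111.1 to 112.0 CPM in NC. Of 8 smooth muscle and pericyte markers 4 were tested and 0 called. Their sums were 81.7 to 84.4 CPM in sgKCNQ3 and 84.8 to 92.3 CPM in NC. Among 9 fibroblast markers with counts, 4 were tested and PDGFRA, at 22.7 CPM in sgKCNQ3 and 15.1 CPM in NC, was called higher; the list summed to 25.7 to 29.2 CPM in sgKCNQ3 and 18.7 to 20.01 CPM in NC, and LUM had 1 count in all. The part of these shifts in the values below was not tested. In bulk RNA, fewer cells that express a gene and less RNA of it per cell cannot be told apart.

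Of the 85 genes, 54 passed the filter and 31 did not. Adjusted over all 12565 genes tested, 23 of the 54 (42.6%) were called at an adjusted p under 0.05 (edgeR quasi-likelihood test), against 29.1% of all tested genes. In sgKCNQ3 14 were higher and 9 lower, against 14.0% and 15.1% of all tested genes. Their median log2 fold change was 0.04, against -0.01 over all tested genes, and their median level was 35.6 CPM, against 31.5 CPM. The CPM of the groups did not overlap for 35 of the 54, against 41.7% of all tested genes. By family, 8 of 18 tested integrins were called, 4 of 9 laminins, 4 of 9 basement membrane collagens, 3 of 12 other collagens and 3 of 3 glycoproteins. The family medians were 0.11, -0.11, -0.09, 0.10 and 0.17 on the log2 scale. Called subunits and chains changed by at most 0.78 on that scale, and ITGBL1, which encodes an integrin beta-like secreted protein and no integrin, stood at -1.17.

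**Figure D1:**
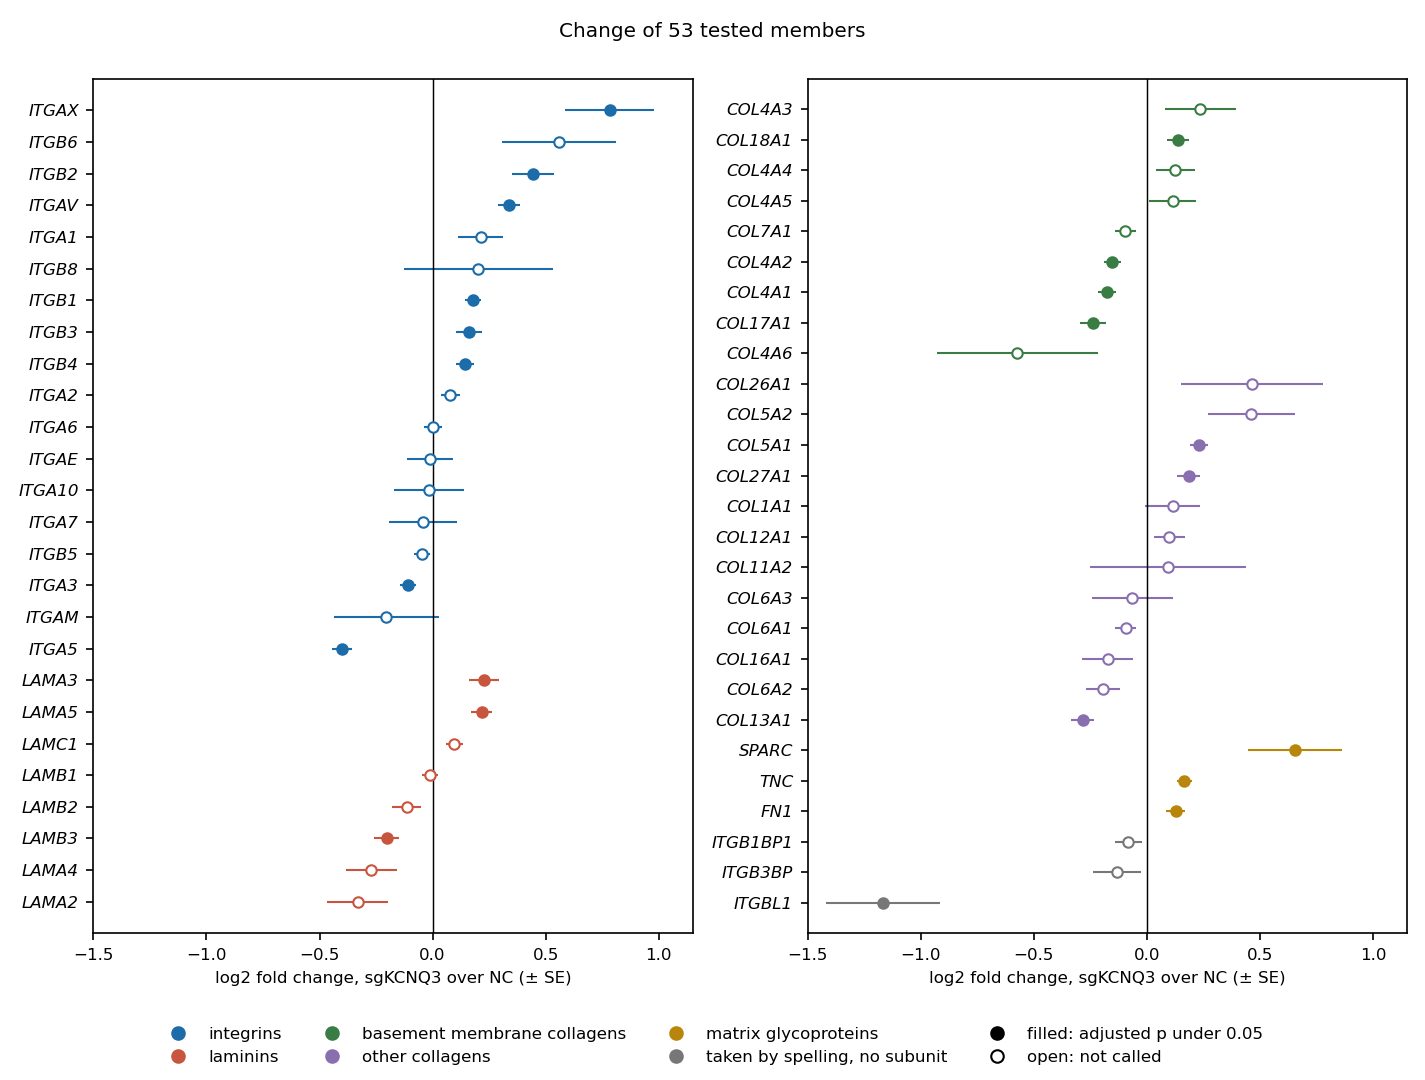
Log2 fold change of sgKCNQ3 over NC (x axis, log2 units) with its SE for 53 of the 54 tested genes, grouped by family and ordered by size within it; filled points mark genes called. ITGA5 is the lowest integrin at -0.40 and ITGAX the highest at 0.78.

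TPM, which scale counts by transcript length and so allow genes to be compared, placed integrins at the top. ITGB1, the beta subunit shared by most matrix-binding integrins, stood at 1435 ± 5.96 TPM in sgKCNQ3 and 1190.2 ± 55.0 TPM in NC (SD, n = 3 each here and below). ITGA3, which pairs with it into a laminin receptor, followed at 572 ± 26.9 TPM in sgKCNQ3 and 579 ± 18.0 TPM in NC. ITGB5, a partner of alphaV, came next at 163 ± 6.90 TPM in sgKCNQ3 and 159 ± 3.54 TPM in NC. In NC the order went on with COL4A2, LAMB1, TNC and ITGB4, at means of 155, 122, 119 and 99.6 TPM. Neighbours in this order were close: COL4A2 (149 ± 6.21 TPM in sgKCNQ3 and 155 ± 8.46 TPM in NC) did not differ from ITGB5 in NC beyond their spread. TNC stood at 143 ± 5.07 TPM in sgKCNQ3 and 119 ± 2.26 TPM in NC. The 85 genes took 0.994% to 1.02% of all counts in sgKCNQ3 and 0.945% to 0.953% in NC. Neither COL3A1 nor COL1A2, fibrillar collagens made in bulk by fibroblasts, passed the filter, with at most 3 and 13 counts in any library. COL1A1, another fibrillar collagen, did pass it, with 95, 107 and 106 counts in sgKCNQ3 and 85, 94 and 101 counts in NC.

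**Figure D2:**
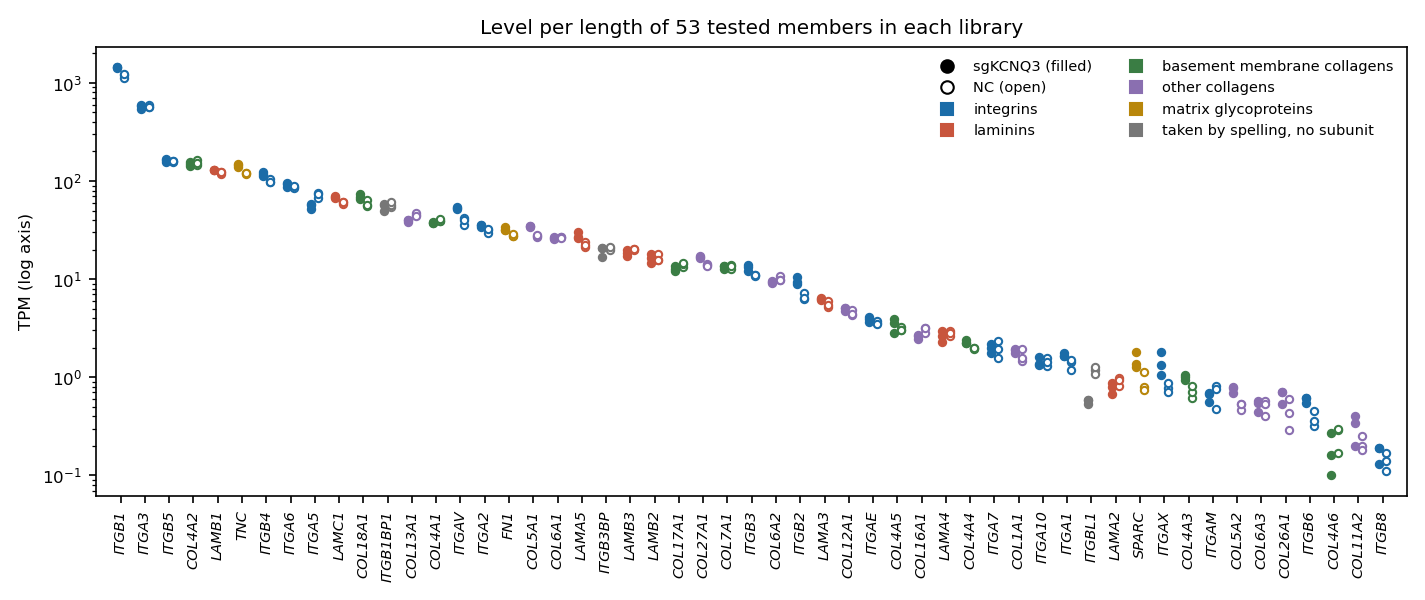
TPM (log axis) in every library for 53 of the 54 tested genes, ordered by their mean in NC; filled points are sgKCNQ3 and open points NC, and colour gives the family. ITGB1 and ITGA3 stand above the others, and ITGB8 is last at a mean of 0.170 TPM in sgKCNQ3 and 0.140 TPM in NC.

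Integrin subunits changed in both directions, 6 higher and 2 lower of 18 tested (44.4% called, against 29.1% of all tested genes). Among alpha subunits that bind the Arg-Gly-Asp motif of fibronectin and vitronectin, one was lower and one higher. ITGA5 (Entrez 3678, chr12:54395261-54419460, minus strand, GRCh38), the alpha subunit of the classical fibronectin receptor, had 131, 121 and 129 CPM in sgKCNQ3, against 159, 176 and 167 CPM in NC. All sgKCNQ3 values were under the lowest NC value, and the log2 fold change was -0.40 (SE 0.0447, edgeR adjusted p 2.75e-07). ITGAV (Entrez 3685, chr2:186590065-186680901, plus strand), the alpha subunit shared by the vitronectin receptors, had 214, 225 and 222 CPM in sgKCNQ3, against 188, 159 and 176 CPM in NC. Here all sgKCNQ3 values were over the highest NC value, and the log2 fold change was 0.34 (SE 0.0477, edgeR adjusted p 1.47e-05). The share of ITGA5 in the summed TPM of ITGA5 and ITGAV was 52.5%, 49.6% and 51.8% in sgKCNQ3, against 61.5%, 67.7% and 64.6% in NC. That is 51.3% ± 1.52 in sgKCNQ3 and 64.6% ± 3.12 in NC, with p = 0.1 by an exact two-sided permutation test, the smallest that 3 against 3 libraries allow. ITGA8 and ITGA2B, other alpha subunits of this kind, had at most 1 count in any library.

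The promoter windows of ITGA5 and ITGAV are shown because these genes had the smallest adjusted p among integrins, with opposite directions. Both are RefSeq windows (GRCh38.p14) from 250 bases before to 50 after a transcription start, read 5′ to 3′ along the gene, at chr12:54419217-54419516 (minus strand) and chr2:186589806-186590105 (plus strand, 1 of 2 listed windows). Capitals mark matches to the AP-1 motif TGANTCA and the SP1 motif GGGCGG on either strand. ITGA5 holds an AP-1 match that begins 6 bases before the start and an SP1 match at -210, and neither set of letters is in this ITGAV window.
ITGA5: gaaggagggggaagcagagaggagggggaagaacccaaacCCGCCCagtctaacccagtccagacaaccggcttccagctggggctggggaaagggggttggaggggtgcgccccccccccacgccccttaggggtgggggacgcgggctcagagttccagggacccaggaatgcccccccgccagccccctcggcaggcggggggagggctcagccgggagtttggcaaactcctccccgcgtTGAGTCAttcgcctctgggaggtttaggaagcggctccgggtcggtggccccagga
ITGAV: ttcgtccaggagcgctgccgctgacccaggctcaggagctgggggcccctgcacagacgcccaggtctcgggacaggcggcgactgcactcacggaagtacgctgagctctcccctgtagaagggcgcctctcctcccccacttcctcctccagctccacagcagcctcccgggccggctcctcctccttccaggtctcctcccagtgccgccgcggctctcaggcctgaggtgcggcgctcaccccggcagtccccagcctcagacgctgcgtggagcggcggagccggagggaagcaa
Windows were listed for 63 of the 85 genes, and for 44 of the 54 tested. An AP-1 match stood in a window of 1 of 10 higher genes (LAMA3), 2 of 7 lower genes (ITGA5 and LAMB3) and 0 of 27 genes that were not called, against 9.37% of 27305 genes with a window. An SP1 match stood in 8 of 10 higher, 5 of 7 lower and 16 of 27 uncalled genes, against 48.3% of all genes. The letters GGAATG, bound by TEAD factors, were in 2 of 10 higher, 1 of 7 lower and 4 of 27 uncalled genes, against 16.7% of all genes. The E-box CACGTG was in 0, 0 and 1 of them, against 8.77%. A match is a description of the letters, and no difference in these shares was tested.

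The beta subunits that were called were all higher. ITGB1 (Entrez 3688, chr10:32900319-33005792, minus strand) had 3098, 3159 and 3073 CPM in sgKCNQ3, against 2819.8, 2601 and 2814 CPM in NC, a log2 fold change of 0.18 (SE 0.0360, edgeR adjusted p 5.24e-04). ITGB4, the beta subunit of hemidesmosomes, had 393, 381 and 405 CPM in sgKCNQ3, against 348, 371 and 348 CPM in NC (log2 fold change 0.14, adjusted p 0.00602). ITGB3, a partner of alphaV, had 48.7, 43.7 and 47.0 CPM in sgKCNQ3, against 42.5, 40.6 and 41.6 CPM in NC (0.16, adjusted p 0.0327). In each of these genes the groups did not overlap, but ITGB4 was not called without NC replicate 3 (adjusted p 0.0556). ITGB3 was not called by DESeq2 (adjusted p 0.0913) or without NC replicate 2 or 3 or sgKCNQ3 replicate 1 or 3 (adjusted p 0.0696 to 0.158). ITGB5 had 306, 296 and 312 CPM in sgKCNQ3, against 309, 319 and 316 CPM in NC, with overlapping groups and no call (-0.05, adjusted p 0.368). Among beta partners of alphaV, ITGB1 made up 89.0% ± 0.386 in sgKCNQ3 and 87.4% ± 0.632 in NC of the summed TPM, and ITGB5 10.1% ± 0.347 in sgKCNQ3 and 11.7% ± 0.613 in NC (exact permutation p = 0.1 for each). ITGB1 is shared with other alpha subunits, so these shares of RNA do not tell how much of it pairs with alphaV. ITGB6, an epithelial partner of alphaV, was at 1.57 ± 0.116 CPM in sgKCNQ3 and 1.06 ± 0.181 CPM in NC and was not called (0.56, adjusted p 0.1), and ITGB8 was lower still.

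Laminin-binding and collagen-binding alpha subunits differed little. ITGA3 had 1662, 1589.9 and 1681 CPM in sgKCNQ3, against 1749, 1833 and 1731 CPM in NC (log2 fold change -0.11, SE 0.0356, edgeR adjusted p 0.0253). Its groups did not overlap, yet the call ended with upper quartile scaling (adjusted p 0.0648), with library size alone (0.134), on log2(TPM + 1) (0.827), with the replicate number as a block (0.0604), and without NC replicate 2 or sgKCNQ3 replicate 1 or 2 (0.0594 to 0.137). ITGA6, the partner of ITGB4 in hemidesmosomes, had 305, 287 and 299 CPM in sgKCNQ3, against 302, 286 and 301 CPM in NC, at a log2 fold change of 0.00 (SE 0.0381, adjusted p 0.983). ITGA2, a collagen-binding subunit of epithelium, had 166, 166 and 166 CPM in sgKCNQ3, against 163, 148 and 161 CPM in NC (0.08, adjusted p 0.169). It was called higher with library size alone (0.11, adjusted p 0.0458) and on TPM, and stood at -0.05 with length and GC trends removed. ITGA1, another collagen-binding subunit, was at 11.1 CPM in sgKCNQ3 and 9.54 CPM in NC and not called (0.21, adjusted p 0.111). ITGA7 and ITGA10 lay under 6 CPM in each library, at log2 fold changes of -0.04 and -0.02. Of the alpha subunits that can pair with beta1, ITGA3 made up 70.4% ± 0.296 in sgKCNQ3 and 71.2% ± 0.979 in NC of the summed TPM. ITGA6 made up 11.3% ± 0.155 in sgKCNQ3 and 10.7% ± 0.481 in NC, and ITGA5 6.85% ± 0.103 in sgKCNQ3 and 8.86% ± 0.390 in NC. These too are shares of RNA and not of paired subunits.

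Subunits best known from leukocytes were weakly expressed, and the 2 that were called were higher. ITGB2, the common beta subunit of leukocyte integrins, had 14.4, 17.4 and 15.1 CPM in sgKCNQ3, against 12.5, 10.8 and 11.1 CPM in NC (log2 fold change 0.45, SE 0.0931, edgeR adjusted p 8.09e-04). ITGAX, its alpha partner in CD11c/CD18, had 3.46, 3.99 and 2.82 CPM in sgKCNQ3, against 2.27, 1.52 and 2.17 CPM in NC (0.78, SE 0.196, adjusted p 0.00381). The groups did not overlap in either gene. ITGAM (1.72 CPM in sgKCNQ3 and 1.98 CPM in NC) and ITGAE (9.19 CPM in sgKCNQ3 and 9.25 CPM in NC) were not called, and ITGAL and ITGB7 had at most 1 count in any library. Of 7 leukocyte markers in the table, CD3E, CD14 and LST1 had at most 1 count in any library. CD68 (-0.27) and CSF1R (-1.21) were called lower, the call of CSF1R ending on log2(TPM + 1) (limma adjusted p 0.0894), with the replicate number as a block (0.0512) and without NC replicate 2 or 3 or sgKCNQ3 replicate 3 (adjusted p 0.0613 to 0.183), and the list summed to 72.2 to 77.2 CPM in sgKCNQ3 and 88.0 to 95.0 CPM in NC.

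**Figure D3:**
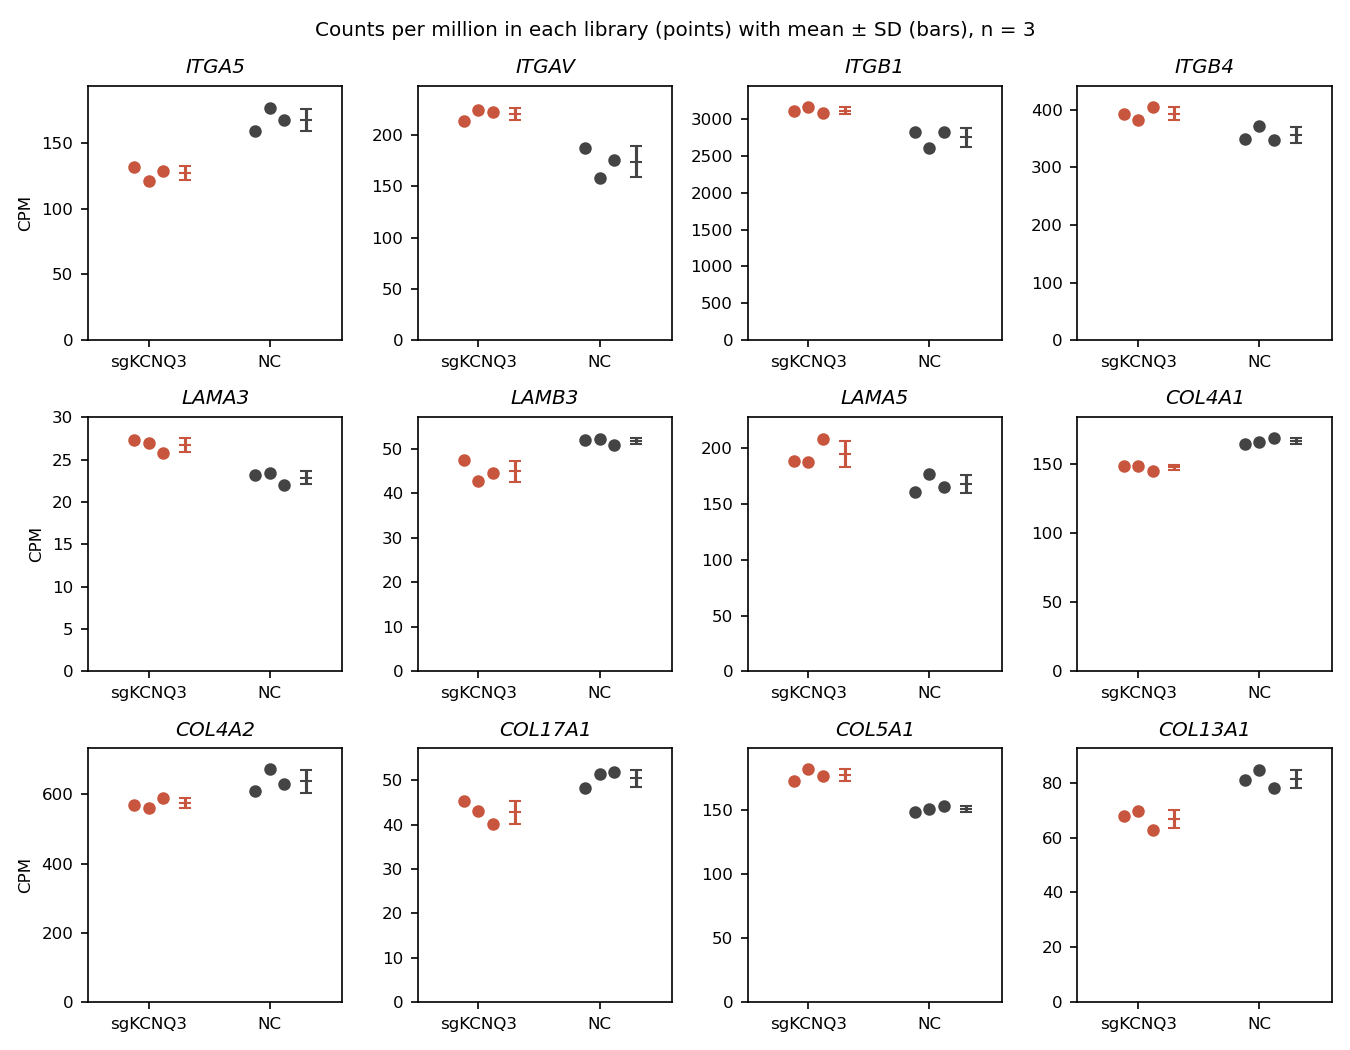
CPM (y axis, from 0) in each library for 12 called genes, with 3 points per group and the mean ± SD beside them; sgKCNQ3 is left of NC in each panel. The groups are separate in every panel, as for COL4A1 at 145 to 149 CPM in sgKCNQ3 and 164 to 169 CPM in NC.

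Laminin chains of the same trimer changed in opposite directions. Laminin-332, the laminin of epithelial hemidesmosomes, has LAMA3 as its alpha and LAMB3 as its beta chain. LAMA3 (Entrez 3909, chr18:23689443-23956222, plus strand) had 27.4, 27.0 and 25.8 CPM in sgKCNQ3, against 23.1, 23.4 and 22.0 CPM in NC (log2 fold change 0.23, SE 0.0670, edgeR adjusted p 0.0124). LAMB3 (Entrez 3914, chr1:209614870-209652466, minus strand) had 47.6, 42.8 and 44.5 CPM in sgKCNQ3, against 52.1, 52.2 and 50.9 CPM in NC (-0.20, SE 0.0545, adjusted p 0.0065). In all 3 sgKCNQ3 libraries the alpha chain was over, and the beta chain under, every NC library. The rise of LAMA3 lost its call with length and GC trends removed (0.13, adjusted p 0.143), in DESeq2 (adjusted p 0.053), on log2(TPM + 1) (0.129) and without NC replicate 3 (0.0707) or sgKCNQ3 replicate 1 (0.0538). LAMB3 was called with the trends removed (-0.17, adjusted p 0.0121), but not on log2(TPM + 1) (limma adjusted p 0.127).

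The windows of LAMA3 (chr18:23872770-23873069, plus strand) and LAMB3 (chr1:209651325-209651624, minus strand, 1 of 3 listed windows) are shown because they hold the other AP-1 matches and belong to chains of 1 trimer with opposite changes. The counts are per gene and do not tell which transcription start was used. Capitals again mark AP-1 and SP1 matches, and AP-1 matches begin at -125 and -69 in LAMA3 and at -67 in LAMB3.
LAMA3: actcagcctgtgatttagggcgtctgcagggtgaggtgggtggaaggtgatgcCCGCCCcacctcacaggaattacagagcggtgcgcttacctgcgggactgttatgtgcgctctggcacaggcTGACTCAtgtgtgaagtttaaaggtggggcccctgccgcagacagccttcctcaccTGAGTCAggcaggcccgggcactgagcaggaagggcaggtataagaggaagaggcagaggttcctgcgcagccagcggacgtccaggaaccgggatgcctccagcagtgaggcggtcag
LAMB3: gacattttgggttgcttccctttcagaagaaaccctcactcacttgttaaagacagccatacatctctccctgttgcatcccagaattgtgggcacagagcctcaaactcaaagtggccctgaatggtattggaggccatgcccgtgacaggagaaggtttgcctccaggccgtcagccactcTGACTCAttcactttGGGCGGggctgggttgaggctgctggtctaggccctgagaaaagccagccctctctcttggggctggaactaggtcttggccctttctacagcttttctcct

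In laminin-511, a laminin of most adult epithelial basement membranes, the alpha chain alone was called. LAMA5 (Entrez 3911, chr20:62307955-62367312, minus strand) had 188, 188 and 208 CPM in sgKCNQ3, against 161, 177 and 165 CPM in NC (log2 fold change 0.22, SE 0.0454, edgeR adjusted p 8.29e-04). LAMB1, its beta chain, had 435, 443 and 427 CPM in sgKCNQ3, against 429, 444 and 441 CPM in NC and was not called (-0.01, adjusted p 0.854). LAMC1, its gamma chain, had 323, 342 and 324 CPM in sgKCNQ3, against 312, 301 and 311 CPM in NC. The groups of LAMC1 did not overlap but the test missed the threshold (0.10, adjusted p 0.0526); it was called with RLE, upper quartile and library size scaling (adjusted p 0.0395, 0.0187 and 0.00776) and on log2(TPM + 1) (0.00964), and stood at 0.00 with length and GC trends removed. LAMA5 made up 12.3% ± 0.845 in sgKCNQ3 and 11.0% ± 0.455 in NC of the summed TPM of the trimer (exact permutation p = 0.1). LAMB2, the alternative beta chain, was at 55.1 CPM in sgKCNQ3 and 59.7 CPM in NC and not called (-0.11). LAMA2, the alpha chain of muscle laminin, was at 4.59 CPM in sgKCNQ3 and 5.78 CPM in NC and LAMA4, known from vessels, at 7.07 CPM in sgKCNQ3 and 8.53 CPM in NC. Neither was called (-0.33 and -0.27), but both were called lower with length and GC trends removed (-0.44, adjusted p 0.0171, and -0.35, adjusted p 0.0224). LAMA1, LAMB4 and LAMC3 had at most 7 counts in any library.

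Both collagens of the common type IV network were lower. COL4A1 (Entrez 1282, chr13:110148963-110307233, minus strand) had 149, 148 and 145 CPM in sgKCNQ3, against 164, 165 and 169 CPM in NC (log2 fold change -0.18, SE 0.0390, edgeR adjusted p 0.00144). COL4A2 (Entrez 1284, chr13:110305812-110513209, plus strand) had 571, 561 and 589.8 CPM in sgKCNQ3, against 609, 674 and 631 CPM in NC (-0.15, SE 0.0387, adjusted p 0.00423). The groups overlapped in neither gene. The share of COL4A1 in the summed TPM of the pair was 20.2% ± 0.593 in sgKCNQ3 and 20.5% ± 0.859 in NC, a difference within the spread (exact permutation p = 0.6). Both were called with length and GC trends removed (-0.23, adjusted p 3.15e-05, and -0.18, adjusted p 1.52e-04), and neither on log2(TPM + 1) (limma adjusted p 0.183 and 0.427).

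COL4A1 and COL4A2 lie head to head and are transcribed away from each other. Their windows are shown because the starts are only 127 bases apart and the windows share 226 bases, so the genes have a common start region. COL4A1 is at chr13:110307108-110307407 (minus strand) and COL4A2 at chr13:110307034-110307333 (plus strand), each printed along its own gene. Capitals mark SP1 matches, at -249 and -67 in COL4A1 and at -65 in COL4A2, and the AP-1 letters are in neither window. The matches at -67 in COL4A1 and at -65 in COL4A2 are the same bases of the shared stretch, read from opposite strands. Both genes are counted above among the lower genes with an SP1 match.
COL4A1: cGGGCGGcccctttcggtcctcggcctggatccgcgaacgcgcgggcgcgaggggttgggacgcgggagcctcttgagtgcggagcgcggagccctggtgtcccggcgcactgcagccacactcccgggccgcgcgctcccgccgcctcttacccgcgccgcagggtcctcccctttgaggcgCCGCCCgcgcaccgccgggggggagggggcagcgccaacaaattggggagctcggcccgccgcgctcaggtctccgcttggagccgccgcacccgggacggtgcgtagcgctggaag
COL4A2: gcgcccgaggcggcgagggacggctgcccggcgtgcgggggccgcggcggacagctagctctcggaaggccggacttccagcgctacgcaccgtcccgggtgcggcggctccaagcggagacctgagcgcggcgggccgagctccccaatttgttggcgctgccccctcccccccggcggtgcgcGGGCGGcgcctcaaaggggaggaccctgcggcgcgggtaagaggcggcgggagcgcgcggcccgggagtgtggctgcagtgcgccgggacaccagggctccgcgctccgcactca

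The other collagens of the basement membrane zone each went their own way. COL17A1, the transmembrane collagen of hemidesmosomes, had 45.2, 43.0 and 40.1 CPM in sgKCNQ3, against 48.2, 51.3 and 51.8 CPM in NC (log2 fold change -0.24, SE 0.0572, edgeR adjusted p 0.00277). All sgKCNQ3 values were under the lowest NC value, and on log2(TPM + 1) it was not called (limma adjusted p 0.13). COL18A1, whose C-terminal fragment is endostatin, had 221, 213 and 235 CPM in sgKCNQ3, against 193, 221 and 194 CPM in NC. Its groups overlapped through NC replicate 2, and its rise (0.14, adjusted p 0.0363) was not called in DESeq2 (0.0529), with the replicate number as a block (0.0741) or without NC replicate 1 or 3 or sgKCNQ3 replicate 1 or 3 (0.0702 to 0.179). COL7A1, the anchoring fibril collagen, had 76.0, 72.4 and 75.5 CPM in sgKCNQ3, against 77.0, 82.3 and 79.9 CPM in NC and was not called (-0.09, adjusted p 0.128), though it was with length and GC trends removed (-0.14, adjusted p 0.0127). The minor type IV chains were low and uncalled: COL4A4 was at 13.2 CPM in sgKCNQ3 and 12.1 CPM in NC, COL4A5 at 13.1 CPM in sgKCNQ3 and 12.1 CPM in NC and COL4A3 at 3.82 CPM in sgKCNQ3 and 3.24 CPM in NC, with log2 fold changes of 0.13, 0.11 and 0.24. COL4A6 was the lowest of them, at a log2 fold change of -0.57 with an SE of 0.357. COL15A1 had at most 11 counts in any library and was not tested.

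Of the other 31 collagens, 12 were tested and 3 called. COL5A1 (Entrez 1289, chr9:134641774-134844843, plus strand), a chain of the fibril-initiating type V collagen, had 173, 182 and 177 CPM in sgKCNQ3, against 148, 151 and 154 CPM in NC (log2 fold change 0.23, SE 0.0395, edgeR adjusted p 9.76e-05). COL27A1, a fibrillar collagen known from cartilage, had 60.9, 60.5 and 61.7 CPM in sgKCNQ3, against 55.4, 53.6 and 52.0 CPM in NC (0.19, adjusted p 0.00653), and lost its call without NC replicate 3 (adjusted p 0.0501). COL13A1 (Entrez 1305, chr10:69801867-69964275, plus strand), a transmembrane collagen found at cell-matrix adhesions, had 67.7, 69.5 and 62.9 CPM in sgKCNQ3, against 81.0, 84.6 and 77.9 CPM in NC (-0.28, SE 0.0498, adjusted p 1.34e-04). The groups were separate in these 3 genes, of which COL13A1 alone was lower. COL5A2, a partner of COL5A1 in type V trimers, was at 2.71 ± 0.243 CPM in sgKCNQ3 and 1.96 ± 0.169 CPM in NC and not called (0.46, adjusted p 0.0703). COL5A1 made up 97.9% ± 0.160 in sgKCNQ3 and 98.2% ± 0.157 in NC of the summed TPM of these chains, and COL5A3 had at most 3 counts in any library.

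No chain of type VI collagen, a microfibril of COL6A1, COL6A2 and COL6A3, was called. COL6A1 had 64.5, 64.8 and 65.6 CPM in sgKCNQ3, against 70.5, 70.0 and 67.6 CPM in NC (log2 fold change -0.09, edgeR adjusted p 0.133). COL6A2 had 17.6, 19.1 and 18.0 CPM in sgKCNQ3, against 22.3, 20.1 and 20.2 CPM in NC (-0.19, adjusted p 0.0574). The groups were separate and lower in both genes, and COL6A2 was called without sgKCNQ3 replicate 2 (adjusted p 0.0459). COL6A3 lay at 2.87 CPM in sgKCNQ3 and 3.01 CPM in NC. COL12A1, a collagen of fibril surfaces, was not called (0.10, adjusted p 0.292), nor were COL1A1, COL11A2, COL16A1 and COL26A1, whose log2 fold changes ran from -0.17 for COL16A1 to 0.46 for COL26A1. The 19 collagens of this class that were not tested had at most 13 counts in any library. In COL11A1, a minor fibrillar collagen, counts were 2, 4 and 1 in sgKCNQ3, against 10, 8 and 11 in NC, and without a filter it was called lower (-2.02, SE 0.593, edgeR adjusted p 0.00483), the only 1 of the 31 untested genes that was.

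The 3 matrix glycoproteins were higher. TNC (Entrez 3371, chr9:115019578-115118257, minus strand), which encodes tenascin-C, had 618, 600.0 and 627 CPM in sgKCNQ3, against 539.8, 549.6 and 555 CPM in NC (log2 fold change 0.17, SE 0.0350, edgeR adjusted p 8.70e-04). FN1, which encodes fibronectin, had 166, 158 and 152 CPM in sgKCNQ3, against 145, 143 and 147 CPM in NC (0.13, SE 0.0415, adjusted p 0.0236). SPARC, which encodes a collagen-binding matricellular protein, had 2.51, 3.68 and 2.69 CPM in sgKCNQ3, against 1.69, 1.58 and 2.37 CPM in NC (0.65, SE 0.210, adjusted p 0.0205). The groups overlapped in none of the 3, but the calls held unequally. With length and GC trends removed TNC was at 0.09 (adjusted p 0.028), and FN1, at 0.03 (adjusted p 0.574), was not called. FN1 also lost its call without any 1 of the NC replicates or sgKCNQ3 replicate 1 (adjusted p 0.0588 to 0.153). SPARC was not called by DESeq2 (0.0918) or without NC replicate 1 or 2 or sgKCNQ3 replicate 2 (0.0771 to 0.123).

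Of the 4 genes that only share the spelling, ITGBL1 had 1.01, 0.761 and 0.814 CPM in sgKCNQ3, against 1.82, 2.08 and 1.92 CPM in NC (log2 fold change -1.17, SE 0.251, edgeR adjusted p 0.00104), with separate groups. ITGB1BP1, which encodes a protein that binds the beta1 tail, was at 58.5 CPM in sgKCNQ3 and 61.9 CPM in NC and not called, nor was ITGB3BP, which encodes a kinetochore protein also named for beta3 binding (-0.13). ITGB1BP2 had at most 11 counts in any library.

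Summed values per length differed between the groups, and the genes of these families are long. Summed over genes, the FPKM columns came to 630332 to 642515 in sgKCNQ3 and 656809 to 668732 in NC. The median length of the longest coding transcript was 5842.5 bases for the 54 tested genes, against 3484 bases over all tested genes. Once the trends over length and GC content were removed in every library, 24 of the 54 were called, against 26.0% of all tested genes. They were 12 higher and 12 lower, against 11.5% and 14.5% of all tested genes, and the median log2 fold change of the 54 was -0.01. FN1 and LAMA3 left the higher calls, and COL7A1, LAMA2 and LAMA4 joined the lower ones. Among the called genes 60.9% were higher as tested, and 83.3% on log2(TPM + 1), where 15 were higher and 3 lower and the median over all genes shifted to 0.06. Length and GC content were removed together, and the part of either in the values above was not tested.

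**Figure D4:**
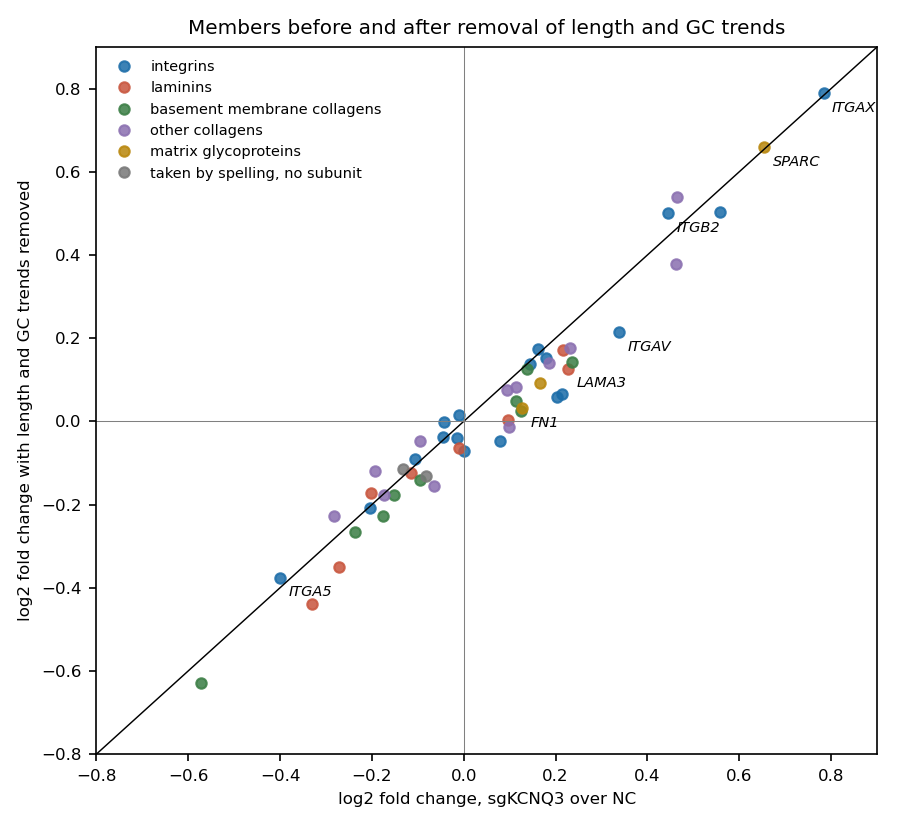
Log2 fold change of sgKCNQ3 over NC as tested (x axis, log2 units) against the value after removal of length and GC trends (y axis, log2 units); each point is a tested gene, colour gives the family, the diagonal marks equality, and ITGBL1 at -1.17 lies outside the axes. ITGAV is at 0.34 and 0.21, and FN1 at 0.13 and 0.03.

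Genes that link integrins to the cytoskeleton changed in both directions. Of 39 tested adaptors and kinases of cell-matrix adhesions 10 were higher and 9 lower (48.7%, against 29.1% of all tested genes), with a median log2 fold change of -0.0036, against -0.01 over all tested genes. With length and GC trends removed 11 were higher and 6 lower, against 11.5% and 14.5% of all tested genes. Several of the 19 calls were lost when 1 library was left out, none of them in the genes of this list named below. PTK2, the focal adhesion kinase gene, was higher at 232 CPM in sgKCNQ3 and 200.1 CPM in NC (log2 fold change 0.21, edgeR adjusted p 2.73e-04), as were the tensin genes TNS4 (1.35), TNS3 (0.27) and TNS2 (0.30). ILK, the pseudokinase of the ILK-PINCH-parvin complex, was lower at 134 CPM in sgKCNQ3 and 172 CPM in NC (-0.35, adjusted p 3.09e-06), as were the parvin gene PARVB (-0.40) and the LIM domain genes ZYX (-0.33) and LPXN (-0.33). Of 10 genes around hemidesmosomes and laminin receptors 3 were higher and 3 lower (60.0%, against 29.1% of all tested genes; median -0.06). DST, a plakin whose epithelial isoform anchors keratins at hemidesmosomes, rose (0.30), as did the dystroglycan gene DAG1 (0.23). The tetraspanin gene CD151, a partner of laminin-binding integrins, fell (-0.23), as did TSPAN4 (-0.22) and RPSA (-0.26), a ribosomal protein gene also named for laminin binding. CD151 and TSPAN4 stood at -0.11 and -0.10 with length and GC trends removed, still called, and were not called on log2(TPM + 1) (limma adjusted p 0.102 and 0.0845). ERBIN, a binding partner of ITGB4, was called higher (0.14) but stood at -0.014 with length and GC trends removed (adjusted p 0.823), and was not called without NC replicate 2 or 3 or sgKCNQ3 replicate 1 (0.0542 to 0.109).

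The remaining lists also held calls in both directions. Of 10 tested genes for other basement membrane components 2 rose and 1 fell, with a median of 0.06. That is 30.0% called, near the 29.1% of all tested genes. TINAGL1 fell (60.3 CPM in sgKCNQ3 and 83.0 CPM in NC, log2 fold change -0.46), and FRAS1 (0.32) and FBLN1 (0.52) rose. The nidogen, perlecan and agrin genes NID1, HSPG2 and AGRN were not called. Of 34 tested enzymes and chaperones of collagen biosynthesis 3 were higher and 3 lower (median -0.03), which is 17.6% against 29.1% of all tested genes. The modifying enzyme genes PLOD3 (-0.25) and COLGALT1 (-0.19) and the chaperone gene FKBP10 (-0.16) fell. The procollagen protease gene ADAMTS3 (0.83), the collagen export gene MIA3 (0.26) and FKBP7 (0.50) rose. MIA3 (adjusted p 0.0835) and FKBP10 (adjusted p 0.0824) were not called with length and GC trends removed. Of 21 tested genes for other integrin ligands and matrix glycoproteins 4 rose and 5 fell (42.9%, against 29.1% of all tested genes; median 0.05). LTBP1 (0.30), the osteopontin gene SPP1 (0.24), CCN3 (0.42) and THBS1 (0.14) rose. CCN1 (-0.40), CCN2 (-0.30), ADAM15 (-0.17) and EFEMP1 (-0.49) were among those that fell. THBS1 (adjusted p 0.471) and ADAM15 (adjusted p 0.0741) were not called with the trends removed. Of 4 tested collagen receptors that are no integrins, the receptor kinase gene DDR1 rose (0.18) and MRC2 fell (-0.17), with a median of 0.07. Several of these calls were lost when 1 library was left out or another setting was used. FBLN1 was not called without NC replicate 1 or 3 or any 1 of the sgKCNQ3 replicates (adjusted p 0.053 to 0.165), FKBP7 without NC replicate 2 or 3 or sgKCNQ3 replicate 1 or 3 (0.055 to 0.162), and FKBP10 without NC replicate 2 (0.0689). THBS1 lost its call without NC replicate 3 or sgKCNQ3 replicate 1 (0.058 to 0.0739), and ADAM15 without NC replicate 2 or sgKCNQ3 replicate 1 or 2 (0.0542 to 0.0937). EFEMP1 lost it without NC replicate 2 or 3 or sgKCNQ3 replicate 1 or 2 (0.0687 to 0.131), and MRC2 without NC replicate 2 or 3 or sgKCNQ3 replicate 2 (0.076 to 0.218). FBLN1 was also not called by DESeq2 (adjusted p 0.192), by limma-voom (0.0527), without a filter (0.052) or with the replicate number as a block (0.0673). MRC2 was not called by DESeq2 (0.105), with upper quartile (0.0596) or library size scaling (0.0973) or with the block (0.0501), nor FKBP7 by DESeq2 (0.159) or with the block (0.0542). EFEMP1 was not called by DESeq2 (0.162), and ADAM15 not with library size scaling (0.0608). On log2(TPM + 1) PLOD3, COLGALT1, FKBP10, ADAM15 and MRC2 were not called (limma adjusted p 0.109, 0.195, 0.35, 0.397 and 0.476).

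Some of these genes share exonic bases with neighbours, and the sources used here do not say whether counting used strand, so their values are less certain. COL18A1 shares 1401 bases with SLC19A1 on the other strand, which was at 36.6 CPM in sgKCNQ3 and 39.2 CPM in NC and not called. LAMA5 shares 244 with ADRM1, which was called lower (log2 fold change -0.12), and ITGBL1 shares 4354 with FGF14, at 0.168 CPM in sgKCNQ3 and 0.214 CPM in NC. ITGA1 shares 475 with PELO on its own strand, which was called lower (-0.24), and ITGB3 shares 2266 with AC068234.1 on its own strand. On the other strand, ITGB1BP1 shares 2209 with ASAP2, at 119 CPM in sgKCNQ3 and 116 CPM in NC and not called. ITGAE shares 427 with HASPIN, also on the other strand, which was called lower (-0.30). SPARC shares 381, ITGB2 303 and ITGAV 203 bases with annotated antisense RNAs.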

How the data were processed

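Poly(A) RNA from 6 RBE libraries was reverse transcribed with random primers, per the labels' protocols, and titles gave groups and replicate numbers. The deposited table of the authors held estimated counts (expected counts) per gene, not normalized, 5.52% to 6.33% of them not whole, with the authors' TPM and FPKM values beside them, per the file headers. The authors' deposited signal columns (counts over a library factor), group means and whole-number score columns entered no test. The submitters' processing notes name GRCh38.p13; the sources used here do not name an aligner, a counter or strand handling.

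Counts were rounded and all genes tested with edgeR 4.0.16 (R 4.3.3): filterByExpr (minimum count 10; 12565 genes kept, 3635 removed), TMM factors, robust quasi-likelihood fits, and Benjamini-Hochberg adjustment at 0.05. SEs are the log2 fold change over the root of F. CPM use TMM-scaled library sizes and shares of chains use TPM. The test was checked on simulated counts with known changes. It recovered 24 of 50 genes changed by 0.25 on the log2 scale and 46 of 50 changed by 0.5. There were 6 false calls among 175, and small changes can be missed. The labels do not say that libraries came from separate cultures, so p-values cover the spread among these 6 libraries, which may be technical.

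The genes, lists and tests were chosen with earlier results of these data known. Any tested gene of the families may be named; values per library follow the smallest p and highest TPM of each family, and lists name up to 4 called genes per direction. COL11A1 and the neighbouring genes SLC19A1, ADRM1, FGF14, PELO, ASAP2 and HASPIN were picked after their values were seen. AC068234.1, for which there were no values, was named for its overlap. Alternatives were RLE, upper quartile or library size factors, DESeq2 1.42.0, limma-voom, limma-trend (limma 3.58.1) on log2(TPM + 1) and log2(TPM + 0.1), no filter, at least 2 CPM in 3 libraries, a replicate block, removal of length and GC trends (splines with 5 degrees of freedom), and leaving out each library. Gene coordinates and lengths are from GENCODE release 29 (GRCh38) and promoter windows from RefSeq (GRCh38.p14). Figures were drawn with matplotlib 3.10.9. Some genes of the families and lists are counted but not reported by name here.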

Additional observations from a re-analysis of the deposited data

How the results depend on the processing

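Of the 23 genes called, 10 (ITGA5, ITGAV, ITGAX, ITGB1, ITGB2, LAMA5, TNC, COL13A1, COL5A1 and ITGBL1) were called in the same direction in every alternative that could be fitted, and 13 lost the call in at least 1; 0 of the 23 changed sign. Leaving out each library in turn, 17 to 25 of the tested genes were called, 8 to 14 higher and 9 to 11 lower, the 8 higher without NC replicate 3, and 2687 to 3471 over all genes. On log2(TPM + 1) and on log2(TPM + 0.1), 3 were called lower, against 9 as reported; the cause was not tested. Over all genes, 48.2% of calls were higher with TMM, 64.5% with library size alone and 80.8% on log2(TPM + 1). DESeq2 called 2448 genes in all and 19 of the 54. Same-numbered libraries did not deviate together (correlations of 0.0136, -0.0977 and 0.00776). The labels do not say whether the numbers pair the samples, and with 3 libraries per group these correlations cannot settle it. With the replicate number as a block 3136 genes and 21 of the 54 were called. The log2 fold change of ERBIN reversed to -0.014 with length and GC trends removed, against 0.14 as reported; the cause was not tested. Without each library in turn, the difference in share (sgKCNQ3 minus NC, percentage points) was -14.9 to -11.7 for ITGA5 in the sum of ITGA5 and ITGAV and -0.771 to 0.0579 for COL4A1 in its pair. Depth limits the weakest genes, such as COL4A6, whose log2 fold change had an SE of 0.357.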
